A study of Mus musculus with 8 samples.

Results

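The mouse stefin A gene cluster was described here through 5 genes, Stfa1, Stfa2, Stfa3, Stfa2l1 and BC100530, in single cells of dorsal skin. The members were chosen by symbol from the 31053 genes that the files list, and all 5 were found. They were proposed after the levels of BC100530 and Stfa3 in keratinocytes (KCs) of injected skin had been seen. Their values in KCs by treatment are therefore given as a description, without a test.

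Single-cell RNA-seq was performed on dorsal skin of female BALB/c mice aged 14 to 16 weeks, all wild type as far as the labels say. In 4 libraries the skin had been injected with PBMCsec, the soluble factors that irradiated blood mononuclear cells release into medium, and in 4 libraries with vehicle, and every library carries a number from 1 to 4 within its group. The labels name a subcutaneous injection of 4 samples per condition and give neither the wounding, the time point nor the control solution, so libraries were compared by treatment alone. No label says that each sample came from a separate mouse, so the p-values measure only the spread between samples.

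Stefins are small intracellular inhibitors of cysteine proteases. They bind cysteine cathepsins, the proteases of lysosomes, tightly and reversibly. Humans carry a single stefin A gene, which is known as a component of the cornified cells of the epidermis, whereas the mouse carries a cluster of closely related copies that are known from skin and from myeloid cells such as neutrophils.

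Per the annotation (GENCODE M21, GRCm38), the 5 genes lay on chromosome 16 within chr16:36156811-36455392, a stretch of 299 kb, and each had 3 exons. Stfa2l1 (ENSMUSG00000059657, chr16:36156811-36161953) and Stfa1 (ENSMUSG00000071562, chr16:36276951-36285373) are read from the plus strand. BC100530 (ENSMUSG00000071561, chr16:36359382-36367748), Stfa2 (ENSMUSG00000022902, chr16:36403992-36408457) and Stfa3 (ENSMUSG00000054905, chr16:36450537-36455392) are read from the minus strand. All 5 are annotated as protein-coding.

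The copies were alike in sequence. The last 270 coding bases, stop codon included, of the 3 members with the most UMIs are shown, 5′ to 3′ on the coding strand. They were joined from the coding exons of GENCODE M21. Capitals mark bases that differ from BC100530 at the same place of the alignment.
BC100530: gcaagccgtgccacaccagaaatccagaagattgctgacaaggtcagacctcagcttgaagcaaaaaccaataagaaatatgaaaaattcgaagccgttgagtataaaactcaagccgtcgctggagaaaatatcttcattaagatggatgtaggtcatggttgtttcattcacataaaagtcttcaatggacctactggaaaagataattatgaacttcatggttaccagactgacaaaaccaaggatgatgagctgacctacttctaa
Stfa3: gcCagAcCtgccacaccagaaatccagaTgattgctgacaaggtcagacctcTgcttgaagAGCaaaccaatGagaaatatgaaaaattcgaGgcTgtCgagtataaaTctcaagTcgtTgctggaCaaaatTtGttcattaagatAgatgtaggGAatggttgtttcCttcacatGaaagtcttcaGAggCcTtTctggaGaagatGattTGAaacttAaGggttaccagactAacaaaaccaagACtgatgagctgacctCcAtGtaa
Stfa2l1: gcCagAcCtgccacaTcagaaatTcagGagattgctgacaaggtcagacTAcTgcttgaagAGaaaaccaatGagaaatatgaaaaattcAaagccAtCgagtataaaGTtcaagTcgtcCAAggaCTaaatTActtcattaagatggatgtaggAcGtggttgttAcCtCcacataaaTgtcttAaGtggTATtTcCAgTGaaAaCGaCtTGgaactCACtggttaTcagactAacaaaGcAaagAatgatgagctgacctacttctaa
Of the 270 bases, 41 differed in Stfa3 and 55 in Stfa2l1. Over the whole coding sequence BC100530 shared 84.4% of the aligned bases with Stfa3 and 79.6% with Stfa2l1. The closest pairs were BC100530 and Stfa1, with 98.0% identity (288 of 294 bases), and Stfa2l1 and Stfa2, with 96.5% (301 of 312 bases).

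The libraries count the 3′ ends of transcripts, so the uniqueness of these ends bears on what each count can mean. All 75-base windows of the last 300 bases of the Stfa3 transcript occurred in that gene alone among the annotated transcripts. For Stfa2l1, Stfa2 and Stfa1 the unique share was 90.3%, 89.8% and 85.4% of the windows, and the rest were shared with Stfa2, Stfa2l1 and BC100530, respectively. For BC100530 only 47.8% of the windows were unique, and the rest were shared with Stfa1 or with BC117090, another stefin gene of the locus. The level of BC100530 is therefore uncertain towards these copies, as are the low levels of Stfa1, while Stfa3 is counted without a shared window. The annotated antisense gene Gm15845 overlaps the 5′ end of BC100530.

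The bases before the RefSeq start sites (GRCm38.p6) are shown for Stfa2l1 and Stfa3, a member found mainly in neutrophils and one found mainly in KCs whose windows lie outside their GENCODE models. The sequences hold 250 bases each, at chr16:36156561-36156810 on the plus strand and chr16:36455393-36455642 on the minus strand, and capitals mark CTTTAAAA, a stretch shared by all members that was noticed on reading them.
Stfa2l1: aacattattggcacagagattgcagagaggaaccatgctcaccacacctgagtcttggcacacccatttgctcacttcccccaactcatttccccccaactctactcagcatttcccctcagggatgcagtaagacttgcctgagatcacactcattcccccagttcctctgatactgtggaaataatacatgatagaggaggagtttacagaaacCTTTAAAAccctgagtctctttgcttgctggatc
Stfa3: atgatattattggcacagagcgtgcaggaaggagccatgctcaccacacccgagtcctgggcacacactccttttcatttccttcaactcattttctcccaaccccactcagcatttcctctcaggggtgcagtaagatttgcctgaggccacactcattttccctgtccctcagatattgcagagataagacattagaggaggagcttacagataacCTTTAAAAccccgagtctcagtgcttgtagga
These promoters shared 82.5% of their aligned bases. CTTTAAAA was found in the 250 bases of all 5 members, starting 10 to 34 bases before the RefSeq start, and in 2.36% of 32851 promoters searched in the same way on both strands. The C/EBP motif TTGCNNAA (9.56% of promoters) and the PU.1 motif GAGGAAG (10.6%) each matched in BC100530 and Stfa1 and not in the 250 bases of the other members. The AP-1 motif TGANTCA (6.75%) and the letters TATAAA (12.4%) had no match in any of the 5 windows. Matches are descriptions of these letters and not binding sites. The windows of BC100530, Stfa1 and Stfa2 reach into the transcribed part of their GENCODE models and are not printed.

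The depth and the cells kept were as follows. The libraries held between 14753926 and 37880651 UMIs (unique molecular identifiers, each counting 1 captured molecule) in 26231 barcodes. Of these, 6150 cells were kept by the limits of the study, which ask for at least 500 and no more than 4000 genes, no more than 20000 UMIs and up to 5% of them mitochondrial. These were between 10.2% and 32.9% of the barcodes of a library. Kept cells had median depths of 6156 to 9521 UMIs per library. No 2 libraries shared more than 2 barcodes. Cells were clustered without the genes of the stefin locus, and clusters are named from marker lists, so each name means cells like that type. Among the cells were 1340 KCs, 1482 fibroblasts (FBs), 837 T cells, B cells and other lymphoid cells (TCs), 519 dendritic cells (DCs) and macrophages, and 117 neutrophils.

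Stefin A transcripts were abundant in the libraries, but the limits on cells left most of them out. All barcodes together held 80950 UMIs of the 5 genes, of which 63330 were BC100530, 16881 Stfa3, 402 Stfa2l1, 234 Stfa1 and 103 Stfa2. The kept cells held 5038 of these UMIs, which is 6.22%. This share differed among libraries. Kept cells held 1447 of 16705, 731 of 30938, 988 of 2438 and 859 of 14394 UMIs in the PBMCsec libraries numbered 1 to 4. In the vehicle libraries they held 50 of 6711, 47 of 6206, 600 of 1480 and 316 of 2078. Barcodes with low mitochondrial content but more than 4000 genes or 20000 UMIs, 2587 in number, held 42899 UMIs, or 53.0%. Barcodes over the mitochondrial limit held 12.9% where they were within the upper limits and 27.0% where they were also above them. Barcodes under 500 genes held 0.899%, so few of these UMIs came from barcodes with little RNA.

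**Figure D1:**
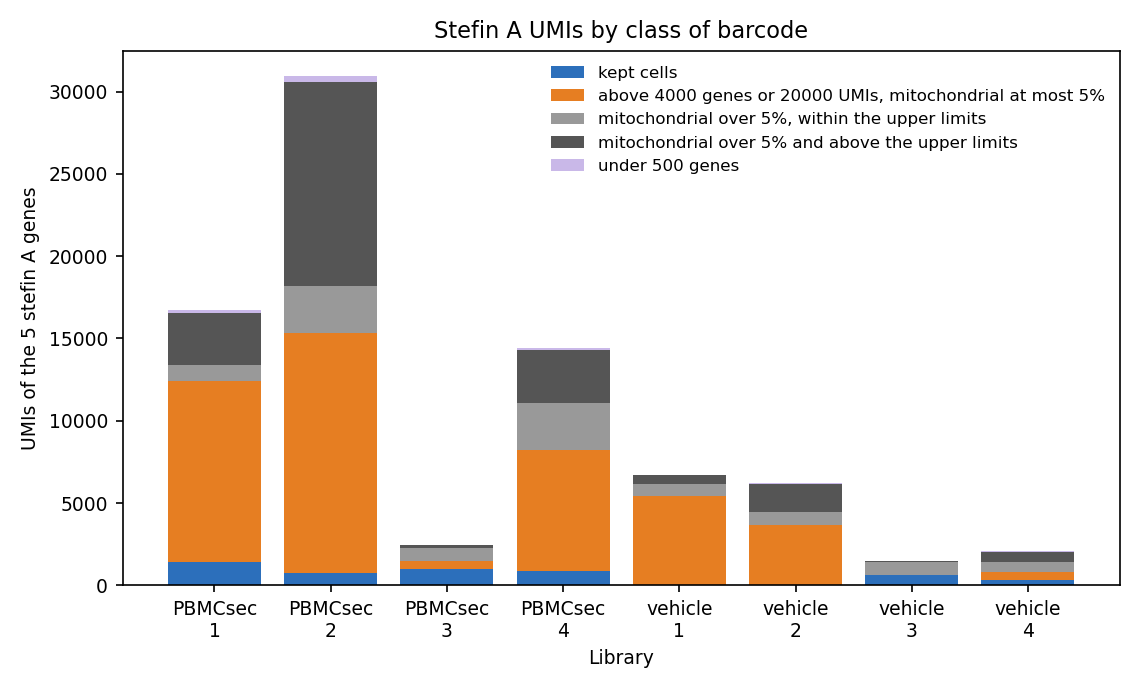
UMIs of the 5 stefin A genes (vertical axis, summed over the genes) in each of the 8 libraries (horizontal axis), stacked by the class of barcode they were counted in. The kept cells at the foot of the bars hold 6.22% of the 80950 UMIs, and the largest class, with 53.0%, is that of cells above the upper limits with low mitochondrial content. These are shares over all libraries together, and in vehicle 3 this class held 35 of 1480 UMIs.

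The transcripts were concentrated in few barcodes. The 50 barcodes with the most stefin A UMIs held between 72.9% and 96.7% of the stefin A UMIs of a library. Barcodes with at least 100 stefin A UMIs numbered 37, 56, 2 and 35 in the PBMCsec libraries numbered 1 to 4 and 14, 17, 1 and 5 in the vehicle libraries. Over all barcodes, without any limit, the level of BC100530 was 481, 1354, 40.7 and 322 CPM after PBMCsec (the UMIs of a gene scaled to the total, CPM) and 308, 271, 28.7 and 40.8 CPM after vehicle. Stfa3 was at 117, 296, 30.3 and 54.0 CPM after PBMCsec and at 143, 101, 14.3 and 26.1 CPM after vehicle. The groups overlapped for both genes, the libraries numbered 1 and 2 were high in both groups, and PBMCsec 3 and vehicle 3 were the lowest of their groups.

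The members differed in the cell types that held most of their UMIs. BC100530 and Stfa3 were found mainly in KCs, Stfa2l1 mainly in neutrophils and Stfa2 mainly in cells of the hair matrix and cortex. The few Stfa1 UMIs lay in KCs. BC100530 was also at 163 CPM in neutrophils, above its level in some KC subtypes. Levels by cell type are CPM, with the UMIs of the gene scaled to the total UMIs of that cell type, pooled over the 8 libraries unless a library is named. Counts of 3′ ends do not grow with transcript length, but the shared ends above limit comparisons between genes, so most comparisons are made within a gene.

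**Figure D2:**
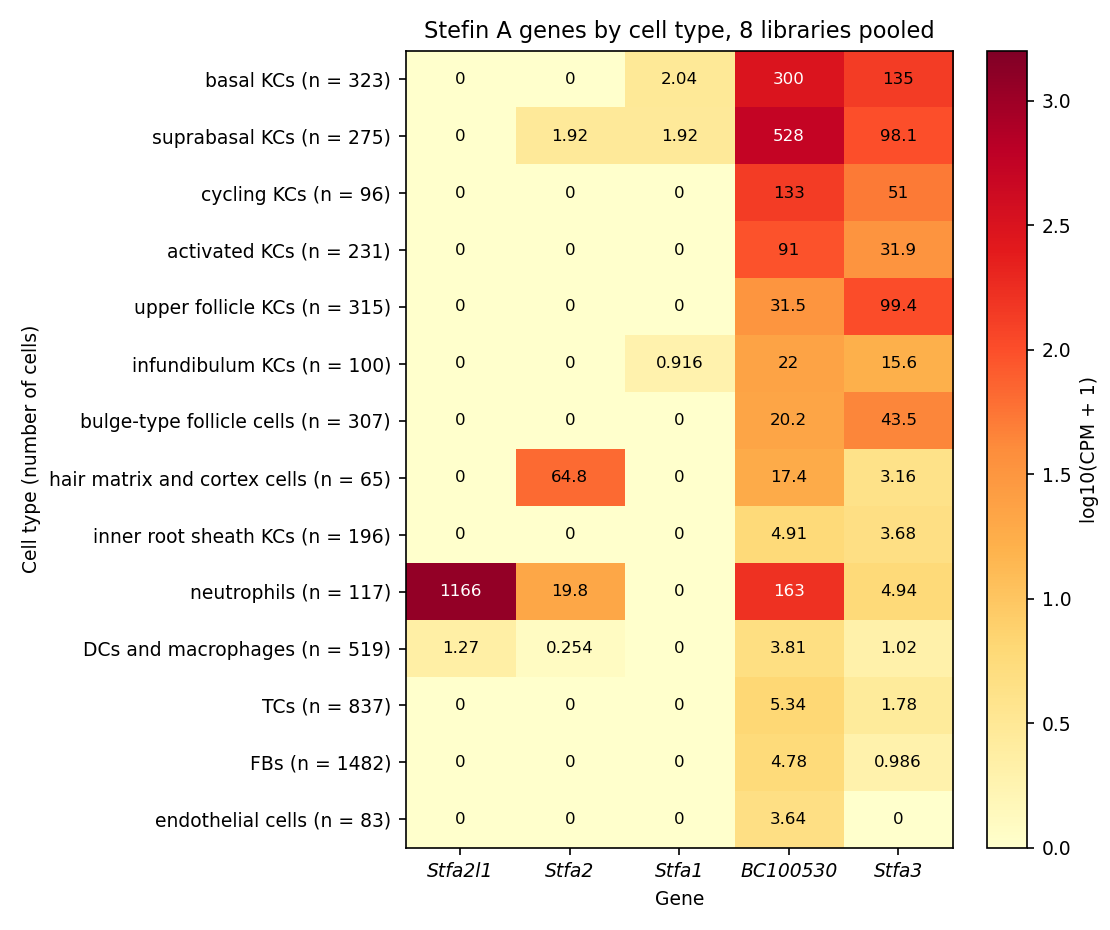
Level of the 5 stefin A genes (columns) in 14 cell types (rows, with the number of kept cells), as CPM pooled over 8 libraries; colour is log10(CPM + 1) and the printed values are CPM. Stfa2l1 stands at 1166 CPM in neutrophils, BC100530 and Stfa3 are highest in suprabasal and basal KCs, and Stfa2 is highest, at 64.8 CPM, in hair matrix and cortex cells.

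Among the KC subtypes of the kept cells, BC100530 was at 528 CPM in suprabasal KCs, the differentiating layers above the basement membrane, and at 300 CPM in basal KCs, which hold the dividing cells. It was at 133 CPM in cycling KCs and 91.0 CPM in activated KCs, and at 31.5, 22.0 and 20.2 CPM in upper follicle KCs, infundibulum KCs and bulge-type follicle cells. Stfa3 followed another order, with 135 CPM in basal, 99.4 in upper follicle, 98.1 in suprabasal, 51.0 in cycling, 43.5 in bulge-type, 31.9 in activated and 15.6 CPM in infundibulum cells. Single libraries carried part of these levels. Without PBMCsec 1, BC100530 was at 295 CPM in suprabasal and 239.8 in basal KCs and at 2.99 CPM in bulge-type cells, and without PBMCsec 4 it was at 55.0 CPM in cycling and 10.8 CPM in upper follicle KCs. Stfa3 was at 25.9 CPM in cycling KCs without PBMCsec 3. The spread over libraries was as large as most of these steps, so the order of neighbours is a description without a test.

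FBs, TCs and endothelial cells were taken as the background, as cell types not known for stefin A. BC100530 was at 4.78 CPM in FBs, 5.34 in TCs and 3.64 in endothelial cells, and at 3.81 CPM in DCs and macrophages, which are myeloid. Of the KCs, 16.3% had a BC100530 UMI, against 2.29% of FBs and 2.15% of TCs. Stfa3 was found in 19.8% of KCs, 0.742% of FBs and 0.717% of TCs. When each cell was thinned to 2000 UMIs, which left out 62 of the 1340 KCs and 42 of the 1482 FBs, the shares were 8.33% of KCs and 0.497% of FBs for BC100530, and 7.68% and 0.275% for Stfa3. The shares in KCs stayed above those of FBs at equal depth.

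Suprabasal and basal KCs of the same library were compared over the 5 libraries with at least 10 cells of both, 3 after PBMCsec and 2 after vehicle. Stefin genes were not used to form the clusters. In suprabasal KCs, BC100530 was at 3777, 3263, 434 and 788 CPM in the PBMCsec libraries and at 111, 133 and 46.1 CPM in vehicle libraries 1, 3 and 4, with no such cell in vehicle 2. In basal KCs it was at 984, 5321, 77.5 and 398 CPM after PBMCsec and at 260, 27.9, 223 and 90.0 CPM after vehicle. The 5 libraries of the fit did not agree in direction, since BC100530 was higher in suprabasal KCs in PBMCsec 1, 3 and 4 and lower in vehicle 3 and 4. Over these libraries the fitted difference was 0.95 on the log2 scale (SE 0.32). The KC values are among those that chose the gene, so this difference is a description without a test. Of the 6518 genes tested, 11.7% were called higher in suprabasal KCs and 12% lower (edgeR quasi-likelihood test with library as a block and Benjamini-Hochberg adjustment).

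The fitted difference of BC100530 did not hold throughout, and the difference of direction between the treatments was not tested. It was 0.00048 at a mitochondrial limit of 10% and 0.09 without the upper limits on genes and UMIs. When PBMCsec 1, 3 or 4 was left out, it was 0.69, 0.53 and 0.94. Stfa3 lay the other way, at −0.53 (SE 0.25), also without a test, since its KC values chose it too. With no upper limit on cells, an alternative chosen after the data were seen, its fitted log2 difference was −0.46. In that fit 20% of the genes tested were called higher and 18.1% lower. The libraries of that fit did not agree in direction. Stfa3 was higher in suprabasal KCs of PBMCsec 1 and 4, by 0.26 and 0.13 on the log2(CPM + 10) scale. It was lower in PBMCsec 2 and 3 and in every vehicle library. In kept cells Stfa3 was at 230, 132 and 165 CPM in suprabasal and at 297, 129 and 106 CPM in basal KCs of PBMCsec 1, 3 and 4. It was at 48.2 and 19.2 against 128 and 102 CPM in vehicle 3 and 4, where it was lower in suprabasal KCs of both. The libraries left out of the fit held few such cells, with 5 basal and 6 suprabasal KCs in PBMCsec 2 and 1 and 2 in vehicle 1.

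The balance between Stfa3 and BC100530 differed among KC subtypes. Stfa3 made up 76.0% of the Stfa3 and BC100530 UMIs in upper follicle KCs, but 31.0% in basal and 15.7% in suprabasal KCs. In bulge-type follicle cells it was 68.3%, but 51 of the 97 Stfa3 UMIs there came from 2 cells of PBMCsec 3, and in PBMCsec 1, the other library with at least 10 such UMIs, the share was 43.5%. In the libraries with at least 10 such UMIs, the share lay between 53.8% and 100% in upper follicle KCs, between 9.56% and 62.5% in basal KCs and between 5.73% and 29.4% in suprabasal KCs. The upper follicle and suprabasal ranges did not overlap, and the share was higher in upper follicle KCs than in suprabasal and than in basal KCs in 6 of 6 libraries that could be compared. Without the upper limits it was higher in 8 of 8 libraries against both, and the ranges were 52.5% to 93.5% in upper follicle and 9.80% to 36.1% in suprabasal KCs. This comparison is a description, made after the levels were seen, and no test was run on it. Some shares in kept cells rested on few cells. PBMCsec 2 held 10 upper follicle, 6 suprabasal and 5 basal KCs, and 7 of the 10 had a UMI of neither gene. In vehicle 4, 24 of 28 upper follicle KCs had neither. Because UMIs are compared within a cell type, the depth of the library does not enter the share.

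**Figure D3:**
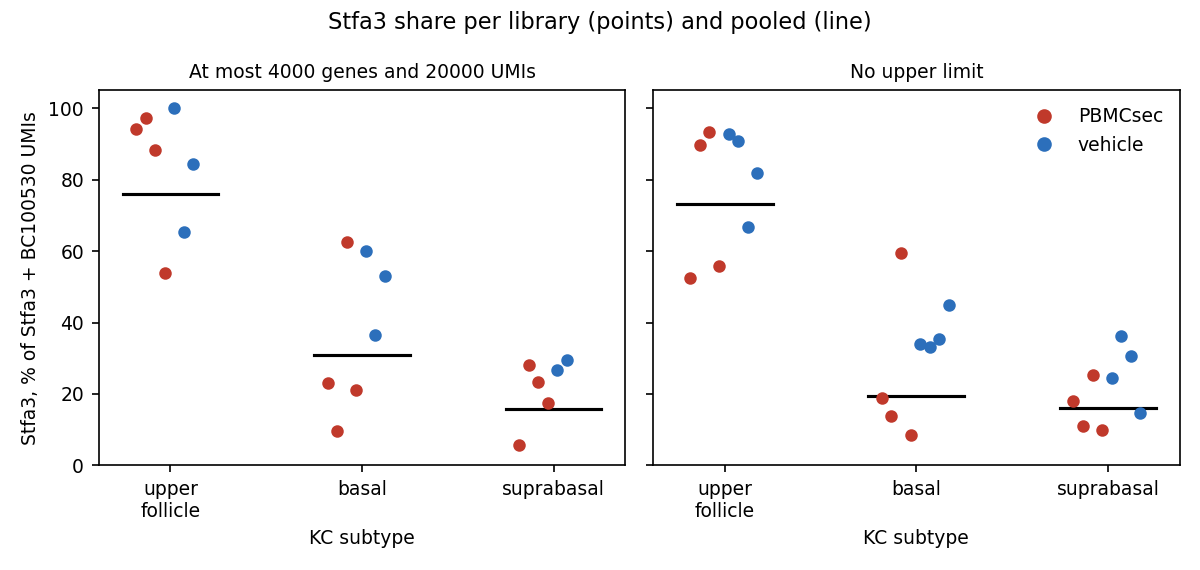
Stfa3 UMIs as a percent of Stfa3 plus BC100530 UMIs (vertical axis) in 3 KC subtypes (horizontal axis) for every library with at least 10 such UMIs, for kept cells (left) and without the upper limits (right); lines are the shares pooled over libraries. Upper follicle KCs lie above 50% in every library shown, and suprabasal KCs below 40%.

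In upper follicle KCs, marked here by Sostdc1, Fst and Aldh3a1, Stfa3 was at 29.9, 698, 50.7 and 196 CPM in the PBMCsec libraries and at 167, 23.0, 29.1 and 201 CPM in the vehicle libraries. BC100530 was at 1.87, 19.1, 6.61 and 168 CPM and at 0, 0, 15.4 and 37.3 CPM in the same libraries. Both groups overlapped for both genes. In basal KCs, 51 cells had UMIs of both genes, 40 of Stfa3 alone and 21 of BC100530 alone. In upper follicle KCs the numbers were 13, 47 and 7 cells, and in activated KCs 18, 23 and 22.

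Stfa2l1 was found almost only in neutrophils, the granulocytes that enter inflamed skin first. Neutrophils held 236 of its 241 UMIs in kept cells (97.9%), and DCs and macrophages held the other 5. In 117 neutrophils, 39.3% had a Stfa2l1 UMI, and 34.3% at 1000 UMIs per cell, with up to 22 UMIs in a cell. Per library it was at 466, 1680, 1191 and 1154 CPM after PBMCsec (mean 1123 ± 499, SD, n = 4) and at 2247, 860, 602 and 1148 CPM after vehicle (1214 ± 724, SD, n = 4). The groups overlapped, and the highest and the second lowest value both belonged to vehicle. These levels rest on 3 to 35 neutrophils per library, with a median of 1531 UMIs in a neutrophil after removal of the 3 genes that the study excludes, so treatment was not tested in this cell type. Only 1 vehicle library had the 10 cells required.

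KCs held 0 UMIs of Stfa2l1 in 1340 cells, which allows a level of up to 0.212 CPM. FBs and TCs also held 0 UMIs. The pooled level in neutrophils was at least 5497-fold higher than this limit in KCs. Since it passed the filter on low counts through neutrophils alone, no test of this difference is given.

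BC100530 was also present in neutrophils, with 33 UMIs in 13.7% of the cells. Its level was 106, 177, 298 and 156 CPM after PBMCsec and 337, 81.9, 451 and 0 CPM after vehicle, with overlapping groups. Neutrophils and KCs could be compared in 4 libraries with at least 10 cells of both types. The KC values are among those that chose the gene, so the comparison is a description without a test. BC100530 was lower in neutrophils than in KCs in PBMCsec 1, 2 and 4 and higher in vehicle 2, where KCs were at 9.73 CPM, with a fitted log2 difference of −1.98 (SE 0.58). In the cells counted without upper limits it was lower in 4 of 4 libraries (−4.48). In the edgeR fit 24.4% of 2627 genes were called higher in neutrophils and 39.3% lower, and without upper limits 9.62% and 39.2% of 8667 genes. At a thinned depth of 1000 UMIs, 11.8% of neutrophils and 6.40% of KCs had a BC100530 UMI. The share of cells and the level thus pointed in different directions, and the KC level rested on few cells with many UMIs. Stfa3 had 1 UMI and Stfa2 had 4 UMIs in neutrophils. The Stfa3 share of Stfa3 and BC100530 UMIs was 2.94% there, from 34 UMIs. At the same depth, FBs and TCs, pooled over libraries, showed BC100530 in 0.389% and 0.586% of cells. Free RNA gives UMIs in cells that do not express a gene, and its part in these low counts was not tested.

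Gm5483, a further stefin gene of the mouse, was named after its values were seen. It had 176 UMIs in neutrophils (869 CPM), 1 in FBs and 0 in KCs. Across 35 clusters, the profile of Stfa2l1 was most like that of Retnlg, a secreted protein of neutrophils, with a Pearson r of 0.999 on log2(CPM + 10) values. The 35 clusters share their libraries, and this likeness rests on the neutrophil cluster.

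The share of neutrophils was 2.85%, 11.2%, 0.528% and 3.16% of the kept cells after PBMCsec and 3.31%, 7.21%, 0.362% and 0.369% after vehicle. The means were 4.43% ± 4.65 and 2.81% ± 3.24 (SD, n = 4 each) and their difference did not pass an exact two-sided permutation test (p = 0.60 over 70 labellings). The groups overlapped, and PBMCsec 2 and vehicle 2 had the highest shares of their groups. Without PBMCsec 2 the difference of the means turned from 1.62 to −0.633 percentage points.

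Stfa2 was rare. Of its 52 UMIs in kept cells, 41 (78.8%) were in the 65 hair matrix and cortex cells, which build the hair shaft, at 64.8 CPM. These UMIs came from 3 cells, 2 of 29 in vehicle 3 with 28 UMIs and 1 of 11 in vehicle 4 with 13 UMIs, while 13 such cells of PBMCsec 3 held 0. With so few cells no comparison of treatments was possible. Csta1, another stefin A-like gene, was at 1185 CPM in the same cells. At a mitochondrial limit of 10%, Stfa2 was at 16.4 CPM in hair matrix and cortex cells and at 18.9 CPM in neutrophils, there from 4 UMIs. The profile of Stfa2 over clusters was most like that of Krt33a, a hair keratin (Pearson r of 0.935 over 35 clusters).

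Stfa1 was rarer still, with 14 UMIs in kept cells, all of them in KCs. In KCs it was at 2.70, 6.85, 1.02 and 0.63 CPM after PBMCsec and at 0, 0, 0.30 and 0.43 CPM after vehicle. With larger cells included, 150 UMIs were counted, 148 of them in KCs, and the groups overlapped, at 4.35, 20.5, 0.74 and 6.03 CPM after PBMCsec and 6.42, 3.82, 0.27 and 0.32 CPM after vehicle. Because Stfa1 shares part of its 3′ end with the far more abundant BC100530, these counts are uncertain.

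In KCs of kept cells, BC100530 was at 612, 1411, 143 and 350 CPM after PBMCsec and at 39.1, 9.73, 104 and 59.5 CPM after vehicle. Every PBMCsec library lay above every vehicle library, with means of 629 ± 556 and 53.1 ± 39.7 CPM (SD, n = 4 each). The fitted log2 fold change was 3.44 (SE 0.67). Stfa3 was at 91.9, 510, 86.6 and 123 CPM after PBMCsec and at 73.3, 25.9, 55.5 and 61.2 CPM after vehicle, with means of 203 ± 206 and 54.0 ± 20.1 CPM (SD, n = 4 each) and a log2 fold change of 1.86 (SE 0.54). These groups did not overlap either. Without PBMCsec 2 the log2 fold changes were 2.67 for BC100530 and 0.93 for Stfa3. The libraries contributed 162, 29, 369 and 137 KCs after PBMCsec and 20, 44, 375 and 204 after vehicle.

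The members were proposed with this contrast in view, so no test of it is given and nothing is read from these counts. Of the 5 members, BC100530 and Stfa3 passed the filter on low counts in KCs. Of the 9038 KC genes tested, 83 (0.918%) had every PBMCsec library above every vehicle library. The edgeR test called 0 KC genes between treatments (0%), with 121 higher and 66 lower at an unadjusted p under 0.05, and DESeq2 also called 0, with 87 and 44. The members did not pass the filter in FBs, TCs or DCs and macrophages, where edgeR also called 0 genes (0% in each), with 123, 88 and 147 higher and 96, 91 and 115 lower at an unadjusted p under 0.05. DESeq2 called 0, 3 and 7 genes in these classes. Once the library number was a term of the fit, edgeR called 0, 5 and 6 genes in them.

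The difference in KCs depended on which cells were counted. Without the upper limits on genes and UMIs, an alternative chosen after the data were seen, BC100530 was at 1522, 4151, 152 and 1975 CPM after PBMCsec and at 1210, 783, 95.7 and 165 CPM after vehicle. The means were 1950 ± 1660 and 563 ± 530 CPM (SD, n = 4 each), the log2 fold change was 1.87 (SE 0.87), and the groups overlapped because PBMCsec 3 lay below 3 vehicle libraries. Stfa3 was then at 339, 837, 94.7 and 286 CPM after PBMCsec and at 519, 366, 53.8 and 69.3 CPM after vehicle, with a log2 fold change of 0.69 (SE 0.72) and overlapping groups. Of the 10276 genes tested in these cells, 1.75% had every PBMCsec library above every vehicle library. At a mitochondrial limit of 10% the groups overlapped as well, with log2 fold changes of 1.98 for BC100530 and 0.62 for Stfa3.

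**Figure D4:**
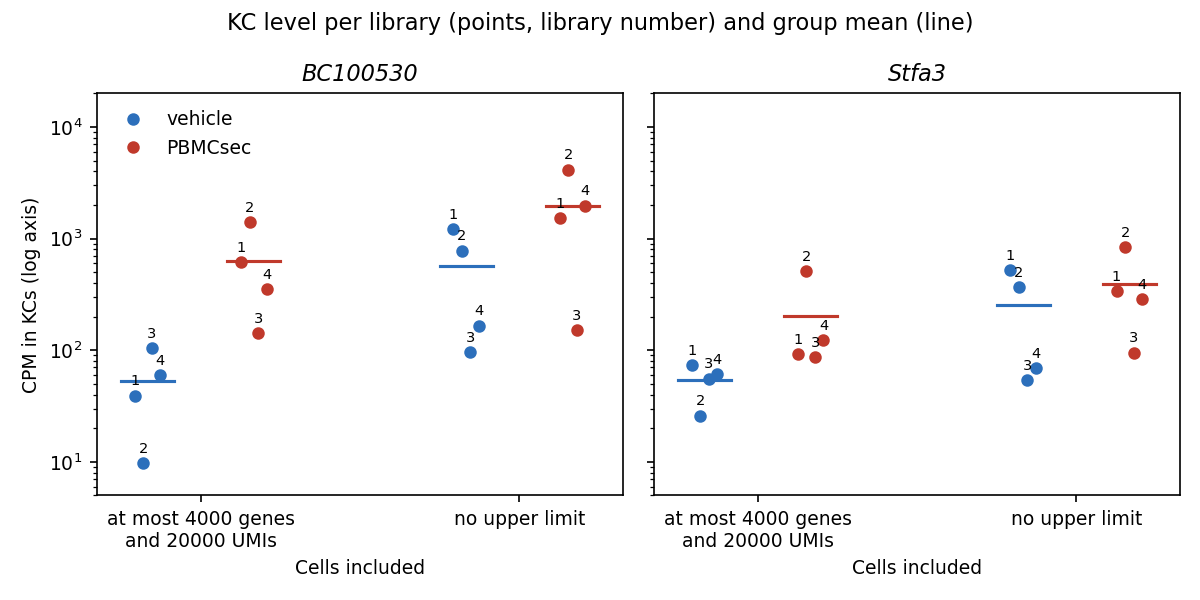
BC100530 (left) and Stfa3 (right) in KCs as CPM on a log axis, for each library (points with the library number; blue vehicle, red PBMCsec), in kept cells and without the upper limits; lines are group means. In kept cells the groups do not overlap, and without the upper limits vehicle 1 and 2 lie above PBMCsec 3.

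Single cells carried much of the KC level. The KC with the most stefin A UMIs held 14.5%, 28.8%, 51.6% and 18.7% of the stefin A UMIs of all KCs in the PBMCsec libraries and 43.5%, 50%, 20.1% and 20.8% in the vehicle libraries. In PBMCsec 3 this cell held 468 of 907 UMIs. Without the top cell of each library, BC100530 was at 535, 943, 51.8 and 290 CPM after PBMCsec and at 43.0, 4.99, 77.2 and 56.1 CPM after vehicle. PBMCsec 3 then lay below vehicle 3 and 4, so the groups overlapped. Stfa3 without the top cells was at 71.3, 500.1, 60.0 and 99.6 CPM after PBMCsec and at 26.8, 13.3, 51.0 and 40.1 CPM after vehicle. Its groups did not overlap, but the share of all genes with such groups was not computed without the top cells. Stfa3 was chosen with this contrast in view, so nothing is read from this.

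KCs above the upper limits were the richest in stefin A. In the clustering without these limits, 608 KCs above them held 90.5% of the stefin A UMIs of KCs while making up 31.5% of the KCs. Their level, summed over the 5 genes, was 2403 CPM against 319 CPM in the 1325 KCs within the limits, a ratio of 7.54. In every library but vehicle 3 the level was higher above the limits, with ratios of 3.04, 2.55, 1.20 and 7.86 after PBMCsec and 14.6, 39.8, 0.30 and 4.53 after vehicle. A stefin A UMI was found in 65.8% of the KCs above the limits and 27.4% of those within, at median depths of 25264 and 10565 UMIs, and the richest cell held 4375 stefin A UMIs. Of the KCs above the limits, 4.44% were among the 5% of cells with the highest doublet scores of their library, against 1.36% within, and the part of doublets in these levels was not tested.

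In this clustering infundibulum KCs, which line the mouth of the follicle, were at 3056 CPM of BC100530 and 799 CPM of Stfa3. This level rested on PBMCsec 2, whose 11 such cells held 5591 of the 8796 BC100530 UMIs and 1315 of the 2300 Stfa3 UMIs, while PBMCsec 3, vehicle 3 and vehicle 4 held 40, 6 and 13 BC100530 UMIs. Basal, suprabasal and cycling KCs were at 1672, 1652 and 1170 CPM of BC100530. Without PBMCsec 2 the BC100530 levels were 1322 CPM in infundibulum, 1297 in basal, 1255 in suprabasal and 1284 CPM in cycling KCs, and Stfa3 was at 406 CPM in infundibulum KCs. Without PBMCsec 1 the cycling KCs were at 687 CPM. Upper follicle KCs stayed low in BC100530 (42.0 CPM) and kept Stfa3 at 115 CPM. The BC100530 level of infundibulum KCs was 22.0 CPM in kept cells.

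Other cell types in the KC clusters were measured beside these results. In the KCs of kept cells, between 6 and 12 of 13 neutrophil markers were at 0 in a library, and their summed level was 69.2, 130, 96.0 and 172 CPM after PBMCsec and 39.1, 230, 133 and 173 CPM after vehicle. Csf3r, the receptor for granulocyte colony-stimulating factor, and Retnlg had 0 UMIs in the KCs of all libraries. Of the other markers, Il1r2 had 1615 UMIs in KCs, more than any other of the list. Without the upper limits Il1r2 was among the 10 genes most raised in the basal KC cluster. The summed level is therefore not a measure of neutrophil RNA alone. S100a9 had 155 UMIs in KCs, of which 92 were in PBMCsec 4 and 51 in vehicle 3. S100a8 had 10 UMIs, 9 of them in PBMCsec 4. The part of neutrophil RNA in the KC levels was not tested. Suprabasal KCs made up 17.3%, 20.7%, 19.2% and 20.4% of the KCs after PBMCsec and 10%, 0%, 22.1% and 27.9% after vehicle. Within suprabasal KCs the means of BC100530 were 2065 ± 1699 CPM after PBMCsec (SD, n = 4) and 96.4 ± 45.0 CPM after vehicle (n = 3). PBMCsec 2 held 6 and vehicle 1 held 2 such cells, and without the upper limits the groups overlapped. Within basal KCs the groups overlapped in kept cells and without these limits.

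The other inhibitors of the family were measured in 18 of 27 listed genes, and 4 of these 18 passed the filter in KCs. None was called between treatments by edgeR. All 4 had positive log2 fold changes, with a median of 0.75 against 0.01 over all genes tested. Cstb, the widely expressed stefin B, was at 1521 ± 430 CPM after PBMCsec and 945 ± 227 CPM after vehicle (log2 fold change 0.68, SE 0.23, adjusted p = 0.9998, edgeR). Cst6, a secreted cystatin of the epidermis, was at 6718 ± 2721 and 3812 ± 2709 CPM, and Cst3, the secreted cystatin C, at 1173 ± 210 and 1133 ± 281 CPM (SD, n = 4 each). Their groups overlapped.

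Of the 11 cysteine cathepsins and legumain, the proteases that cystatins inhibit, 9 passed the filter in KCs and 0 were called, 5 with positive and 4 with negative log2 fold changes. Ctsb, cathepsin B, had the highest level of them in KCs, at 347 ± 27.0 CPM after PBMCsec and 295 ± 13.5 CPM after vehicle (SD, n = 4 each). Its groups did not overlap, and its log2 fold change of 0.24 (SE 0.17) did not pass the edgeR test (adjusted p = 0.9998). Ctsl, cathepsin L, was at 134 ± 58.8 and 108 ± 43.5 CPM, and Ctsh at 96.9 ± 9.87 and 101 ± 17.8 CPM, with overlapping groups. Across cell types, Ctsb was at 1131 CPM in neutrophils and 314 CPM in KCs, and Ctsz at 583 CPM in neutrophils and 9.76 CPM in KCs. Ctss was at 1439 CPM in DCs and macrophages and 2.12 CPM in KCs, and Ctsk was at 1446 CPM in FBs and 3.25 CPM in KCs.

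The clusters of the epidermis were formed with most of these genes, so only values are given for the 9 inhibitors and proteases that passed the filter in its layers. Suprabasal KCs had more Cst6 than basal KCs (162 against 25.7 CPM) and more Cstb (853 against 539 CPM). They had less Ctsl (30.9 against 165 CPM) and less Lgmn, legumain (11.4 against 32.6 CPM), but more Ctsc, cathepsin C (74.6 against 23.6 CPM). Ctsb was at 225 against 332 CPM, and Cst3 (1379 against 1392 CPM), Ctsh (91.8 against 102 CPM) and Ctsf (24.4 against 26.2 CPM) differed less. These are means over the 5 libraries with at least 10 cells of both layers.

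Of the other lists, 14 of 48 genes of KC stress and inflammation and 24 of 33 genes of the cornified envelope passed the filter in KCs, and edgeR called 0 of them between treatments. The median log2 fold change was −0.05 for the stress list and −0.13 for the cornified list, with 17 of 24 negative in the latter. Only 2 of 25 neutrophil genes passed the filter in KCs.

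The genes outside the locus whose profile over 35 clusters was most like that of the summed stefin A genes were Slc16a14, Il1rn, Fam81a, Gk and Wnt3, with Pearson r of 0.772, 0.766, 0.760, 0.742 and 0.742 among 12495 genes compared on log2(CPM + 10) values. For single members they were Fam81a for Stfa3 (0.926), Cfap57 for BC100530 (0.826) and Calm5 for Stfa1 (0.936). In the clustering without upper limits the gene most like the sum was BC117090 (0.922), the stefin gene of the same locus that shares 3′ windows with BC100530. Clusters share their libraries and depth, and these values are descriptions.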

How the data were processed

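Per gene and barcode, the authors deposited whole-number UMI counts from Cell Ranger (mm10), not normalized. The submitters' processing notes name version 3.0.2. The members and lists were chosen with earlier results of these data known.

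Barcodes were kept by the study's limits, and its 3 excluded genes (Gm42418, Gm17056, Gm26917) were removed. Libraries were integrated and their cells clustered in Seurat 5.3.0 (R 4.3.3; 2000 variable features without the stefin locus, 30 dimensions, anchor filter 100, anchor weight 50, resolution 1). A cluster took a name from 3 or more listed markers, each in 25% or more of the cells and at 2-fold higher CPM than elsewhere, a rule taken over from earlier work on these data. Scrublet (scanpy 1.11.5) called 0.341% of cells, which is too few to rely on. Doublets were kept, and removing the 5% highest scores was an alternative.

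Counts were summed per library and class with at least 10 cells per library and tested with edgeR 4.0.16 (filterByExpr, TMM, quasi-likelihood, Benjamini-Hochberg, adjusted p under 0.05, two-sided), tested on simulated data. As in the study, 3 collagens (Col1a1, Col1a2, Col3a1) entered the tests between treatments in FBs only, and 5 KC genes (Krt1, Krt5, Krt10, Krt14, Krtdap) in KCs only. The comparisons between cell types and between layers kept these genes. CPM per library are scaled to the total. CPM of the listed inhibitors and proteases are TMM-scaled where treatments or layers are compared, and scaled to the pooled total where cell types are compared. Intervals and limits cover counting error only. Alternatives were DESeq2 1.42.0, other size factors, no filter, a replicate block, fewer libraries, a mitochondrial limit of 10%, resolution 0.5 and, added after the data were seen, no upper limits and no top cell. Named genes were the members, of each list the called genes or else up to 3 with the highest CPM, and the 5 most alike in profile; Gm5483, BC117090, Csta1 and proteases by cell type or layer were added after their values were seen. Between libraries of equal number, the deviations from the group mean correlated across genes at 0.35, 0.19, 0.13 and 0.40 in TCs for numbers 1 to 4. The values were 0.32, 0.085, 0.28 and 0.28 in DCs and macrophages and 0.16, 0.031, 0.16 and 0.42 in KCs. In FBs they were 0.19, −0.011, 0.048 and 0.21. Transcripts and coordinates are from GENCODE M21, promoters from RefSeq GRCm38.p6, matched for all 5 members (BC100530 by position as Cstdc5), and identities were computed with Biopython 1.88.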

Additional observations from a re-analysis of the deposited data

Results flagged for a closer look

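Within each group of 4 libraries, the highest or lowest level of each member in KCs and neutrophils was compared with the others by Dixon's ratio, in 28 tests. The nominal rate of about 1 flag in 20 does not hold for a gene counted in 1 library alone, since the ratio is then 1 by construction. Stfa3 in KCs stood apart in PBMCsec 2, at 510 CPM, where the other PBMCsec libraries lay between 86.6 and 123 CPM. That library held 29 KCs, and these values are among those that chose the members, so this flag is a description. Stfa2 in KCs was counted in PBMCsec 1 alone, at 3.24 CPM from 6 UMIs. Stfa3 in neutrophils was counted in vehicle 1 alone, at 112 CPM, which is 1 UMI in 5 cells, with the upper limits and without them. Without the upper limits, Stfa2 in KCs of the vehicle group was counted in vehicle 1 alone, at 0.642 CPM, and Stfa2l1 in KCs in PBMCsec 2 alone, at 0.337 CPM, which is 1 UMI.

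BC100530 differed between the layers of the epidermis in opposite directions in the treatment groups. Suprabasal KCs had more of it than basal KCs in 3 of 3 PBMCsec libraries with enough cells, by 1.93, 2.34 and 0.97 on the log2(CPM + 10) scale, and less in 2 of 2 vehicle libraries, by −0.70 and −0.83. The group means of this difference lay 2.52 apart. The difference between the groups was not tested, it rests on 5 libraries, and it was not seen without the upper limits, where both directions occurred in both groups.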

How the results depend on the processing

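Of 217 alternative values, 173 kept their direction and their side of the threshold or moved less than the spread. Another 34 moved further, 6 lost and 3 gained a pass of the threshold, and 1 reversed. In KCs, where no gene was called between treatments, 1 was called with no filter on low counts, 6 in libraries numbered 1 and 2 alone, 1 in those numbered 3 and 4 alone, and 0 to 1 when 1 library was left out. In FBs 2 were called in libraries 1 and 2 alone. In TCs 3 were called by DESeq2, 46 with no filter, 5 with the replicate block, 10 in libraries 1 and 2, 1 in libraries 3 and 4, and 0 to 2 with 1 library left out. In DCs and macrophages the counts were 7, 108, 6, 8, 1 and 0 to 1, with 1 without the upper limits. The replicate block, with library number as a term, left BC100530 at 3.05 and Stfa3 at 1.45 in KCs and changed no other call.

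The log2 fold change of BC100530 in KCs was 5.71 in libraries 1 and 2, 1.58 in libraries 3 and 4, 1.98 at 10% mitochondrial UMIs, 1.87 without upper limits and 2.67 to 4.00 with 1 library left out. Stfa3 gave 2.79 in libraries 1 and 2, 0.81 in libraries 3 and 4, 0.62, 0.69 and 0.93 to 2.13, with the lowest without PBMCsec 2. Between neutrophils and KCs 1674 genes were called, 3587 with no filter, 2711 at 10% mitochondrial UMIs, 4235 without upper limits and 1552 to 2280 with 1 library left out. Between suprabasal and basal KCs, 1545 genes were called, 932 with no library block, 2413 without upper limits and 1070 to 1711 with 1 left out. As a description without a test, BC100530 was at 1.55 without the block, 0.00048 at 10% mitochondrial UMIs and 0.085 without upper limits. It lay between 0.53 and 1.34 with 1 left out. Stfa3 was at −0.52 with no filter and −0.46 without upper limits, and lay between −0.78 and −0.26 with 1 left out. The neutrophil share difference turned to −0.633 percentage points without PBMCsec 2 and reached 3.08 without vehicle 2. Without upper limits the KC levels, as means over the 8 libraries, were 1257 CPM for BC100530, 321 for Stfa3, 5.31 for Stfa1 and 0.0421 for Stfa2l1. The cause of these changes was not tested. Depth limits Stfa1, Stfa2 and all neutrophil values.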
